A study of Mus musculus with 3 samples.

Results

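The adhesion and junction genes comprised 82 genes, represented by 119 of the 12422 gene probe sets on the array. They were chosen by name from the probe sets that the platform annotation gives a single symbol: cadherins and protocadherins, catenins, desmocollins and plakoglobin, integrins, adhesion molecules of the immunoglobulin type, claudins with their junction partners, and connexins. Cldn5 was left out. No probe set with a single symbol was found for the neurexins, the neuroligins or Crb1, so these names of the rule contributed no member. The rule applies to names and uses no signal.

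The samples were neural retinas of Rp1-/- mice at postnatal day 10, on a mixed background of 129/SvEv and C57BL/6. Rp1 encodes a protein that binds microtubules in the outer segment of photoreceptors. Each of the 3 arrays (Affymetrix U74Av2, which represents a transcript by 1 or more sets of short probes) received RNA from a pool of 3 to 4 mice collected at 1 to 2 pm, so variation between single animals was not seen. All 3 arrays carried the same genotype per the descriptions, although 1 array title, that of pool 1, does not carry the genotype tag found in the other titles. No control genotype was analysed here, so each comparison is between pools of mutant retina, and no difference can be assigned to the loss of Rp1. The array held 0 probe sets named Rp1, and the knockout was not checked from these data. Pool numbers are names only. Nothing in the labels says that the pools came from separate litters or preparations, so p-values measure the spread between these 3 RNA samples, which may be technical.

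Cadherins are calcium-dependent adhesion proteins that bind the same cadherin on a neighbouring cell and hold on to actin through catenins. Integrins pair an alpha with a beta chain to bind extracellular matrix or counter-receptors on other cells. Claudins and occludin seal tight junctions over scaffolds of the zonula occludens type, and connexins form gap junction channels that couple cells electrically. In the retina, an adherens-type junction between photoreceptors and Müller glia forms the outer limiting membrane, and connexins couple several neuron classes.

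Signals are scaled intensities, given for pools 1, 2 and 3 in that order, with mean ± SD over n = 3 pools. Controls for bacterial and yeast transcripts, absent from mouse tissue, gave background floors of 100.5, 124.8 and 120.4. A probe set counted as measured where its mean signal exceeded the mean floor. Probe sets bind with different strengths, so a difference in signal between sets says nothing of the RNA levels of their genes. Mean signal was used across sets only to choose which genes to show. Sets marked f may hold probes shared by a sequence family, sets marked s or g share probes with another transcript or set, and sets marked r or i were designed under relaxed rules. Signals of such sets may not belong to the named gene alone. The retina's own markers were present: all 9 rod genes with a probe set lay over the floor in every pool, with summed signals of 77999.5, 97970.0 and 87707.1. Lens genes set the pools apart, with sums of 94913.7, 25459.7 and 203614.4 over 11 of 11 measured genes, 8 of which were called variable. Pool 3 also had the highest pigment epithelium sum, 2220.8 against 1433.6 and 1380.9 in pools 1 and 2, over 4 of 7 genes, with Tyr, Tyrp1 and Rgr not measured. These differences between pools accompany every comparison below, and their part in the adhesion results was not tested. In RNA from a whole tissue, fewer cells of a type and less RNA per cell cannot be told apart.

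Fewer adhesion and junction sets than sets overall were detected. Of the 119 sets, 59 (49.6%) were measured, against 8327 of all gene sets (67.0%). They covered 45 of the 82 genes. In all 3 pools 49 sets (41.2%) exceeded the floor, against 57.9% of all gene sets, and 43 (36.1%) exceeded it in no pool, against 23.3%. By array, 64, 60 and 61 member sets lay over the floor. All 3 protocadherin sets (Pcdh7 and Pcdh12) were under the floor in every pool. Over it in all pools were 9 of 13 integrin beta sets, Itgb1bp1 included, and 10 of 16 sets of catenins, plakoglobin and desmocollins. Of 15 tight junction sets only 2 were over the floor in all pools, those of Tjp1 and Cldnd1. A signal under the floor does not show that a gene is silent, only that this probe set did not exceed background.

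**Figure D1:**
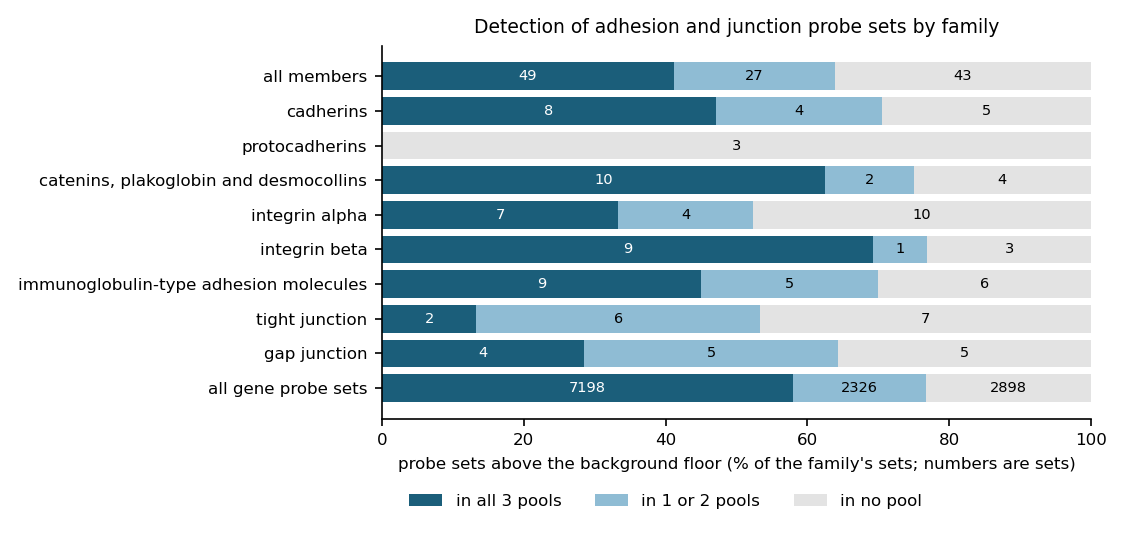
Share of probe sets whose signal exceeded the background floor in all 3 pools, in 1 or 2, or in none, for each family of adhesion and junction genes (bars sum to 100%, and printed numbers count sets). Of all 119 member sets, 49 were over the floor in all pools, and the tight junction family had 2 of 15.

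Detection went together with the base composition upstream of the genes. RefSeq promoter sequence (GRCm38.p6) was matched for 57 of the 82 genes by gene identifier, and the 250 bases before the first start site listed were examined. The ratio of observed to expected CG dinucleotides had a median of 0.69 for the 27 genes over the floor in all pools, 0.64 for the 15 over it in some, and 0.39 for the 15 over it in none. The same contrast held on the array as a whole, at 0.75 for 4430 genes detected in all pools and 0.35 for 1027 detected in none, so it is not particular to adhesion genes. Single genes overlapped widely: members over the floor in all pools ran from 0.05 to 1.01, and those over it in none from 0.0 to 0.91. Itgb2l, detected in all pools, had 0.054, and Itga8, detected in none, had 0.906. The promoters below were chosen by signal. Those of the catenins Ctnnb1 and Ctnnd1 had the highest mean signals among detected members with a listed promoter. Those of Gja10 (a connexin of mouse horizontal cells) and Cntn3 (a contactin) had the lowest among the undetected. Each is given 5′ to 3′ on the gene's own strand, with each CG dinucleotide in capitals.

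Ctnnb1 (chr9:120933150-120933399, plus strand): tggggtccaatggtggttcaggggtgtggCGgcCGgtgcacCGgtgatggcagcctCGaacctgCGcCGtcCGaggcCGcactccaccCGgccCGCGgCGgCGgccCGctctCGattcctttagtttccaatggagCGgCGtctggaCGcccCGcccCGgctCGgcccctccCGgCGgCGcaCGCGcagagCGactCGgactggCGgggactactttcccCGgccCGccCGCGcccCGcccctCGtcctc

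Ctnnd1 (chr2:84658978-84659227, minus strand): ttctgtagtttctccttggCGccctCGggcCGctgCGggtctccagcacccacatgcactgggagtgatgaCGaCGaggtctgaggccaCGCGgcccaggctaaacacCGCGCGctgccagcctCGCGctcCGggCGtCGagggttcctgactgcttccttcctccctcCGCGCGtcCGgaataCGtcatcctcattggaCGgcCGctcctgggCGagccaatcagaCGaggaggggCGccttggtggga

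Gja10 (chr4:32602383-32602632, minus strand): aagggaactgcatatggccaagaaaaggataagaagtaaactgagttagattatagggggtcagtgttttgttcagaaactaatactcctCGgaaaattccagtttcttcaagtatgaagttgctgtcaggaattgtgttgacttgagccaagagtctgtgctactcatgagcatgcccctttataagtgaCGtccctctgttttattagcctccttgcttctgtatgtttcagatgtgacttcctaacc

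Cntn3 (chr6:102464668-102464917, minus strand): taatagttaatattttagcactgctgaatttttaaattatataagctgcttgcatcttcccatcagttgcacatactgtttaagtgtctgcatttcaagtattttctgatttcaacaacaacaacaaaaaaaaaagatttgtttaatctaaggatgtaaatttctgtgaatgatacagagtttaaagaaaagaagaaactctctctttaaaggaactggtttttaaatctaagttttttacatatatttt

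The Ctnnb1 and Ctnnd1 stretches held 35 and 26 CG dinucleotides, against 2 for Gja10 and 0 for Cntn3. A GC box (GGGCGG on either strand) occurred upstream of 31 of the 57 member genes (54.4%), against 32.9% of 27025 genes of the table, and among the 4 printed it was found for Ctnnb1. Among genes over the floor in all pools it occurred for 55.6% of members and 60.9% of array genes. A TATA box (TATAAA, either strand) occurred for 4 member genes (7.02%), against 13.0% of the table. For genes over the floor in all pools it was 3.7% of members (1 gene) and 7.09% of array genes. Among the 4 printed it was found for Gja10. A CCAAT box (CCAAT, either strand) occurred for 13 member genes (22.8%), against 34.5% of the table. For genes over the floor in all pools it was 25.9% of members and 36.1% of array genes. Of the 4 printed it was found for Ctnnb1 and Ctnnd1. The motifs do not overlap in their letters, and a match is a description of the sequence only.

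**Figure D2:**
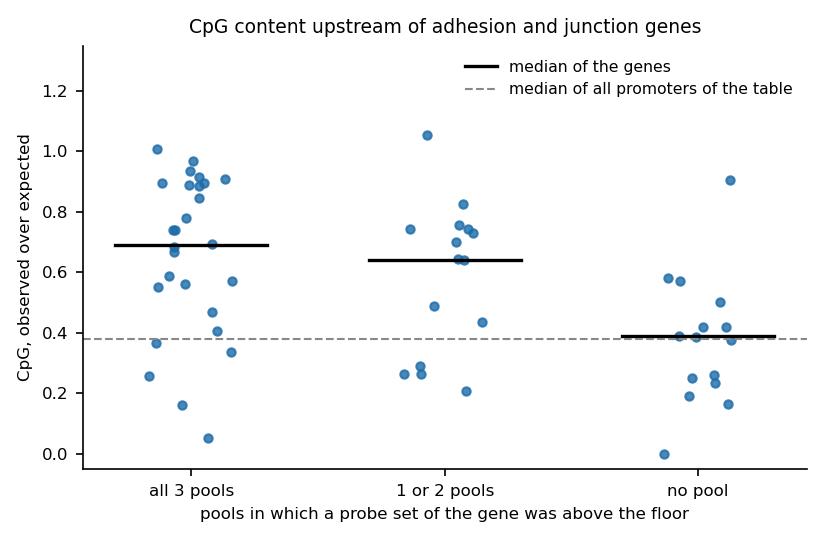
Observed over expected CG dinucleotides in the 250 bases upstream of 57 adhesion and junction genes, by the number of pools in which a probe set of the gene exceeded the floor. Points are genes, thick lines are medians (0.69, 0.64 and 0.39), and the dashed line is the median of all genes of the promoter table (0.38).

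Among the measured sets, no adhesion or junction set was called variable between pools. limma was used to ask whether the variance of a set across the pools exceeded that of sets with similar intensity. It called 0 of 59 member sets after Benjamini-Hochberg adjustment over all 8327 measured sets, where 18 sets (0.216%) were called. At an unadjusted p under 0.05 there was 1 member set (1.69%), against 5.34% of all measured sets. The median SD of log2 signal was 0.26 for the member sets and 0.27 for all measured sets, and the member values ran from 0.045 to 0.74. The order of these medians turned with the floor at the median of the controls, to 0.41 for members and 0.32 for all sets. With the higher floor it also depended on signal. At mean signals of 115.4 to 232.2 the median SD was 0.257 for 21 member sets, against 0.362 for all sets. At 232.3 to 445.6 it was 0.338 (20 member sets) against 0.303, and at 445.7 to 931.9 it was 0.35 (8) against 0.24. From 932.3 up it was 0.2 (10) against 0.208. The close medians over all signals therefore join differences in both directions. Between pools 1 and 2, 3 member sets (5.08%) differed by more than 2-fold, against 6.24% of all measured sets. Between pools 1 and 3 it was 2 (3.39%) against 6.92%, and between pools 2 and 3 it was 2 (3.39%) against 5.1%. Over any pair of pools the count was 6 of 59 (10.2%) against 13.2%. It depended on the floor: with the floor at the median of the controls, 99 member sets were measured, 28 passed 2-fold over some pair, and so did 25.5% of all sets. With the higher floor each of these shares lay under that of all sets, and the test cannot show that the genes did not differ.

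**Figure D3:**
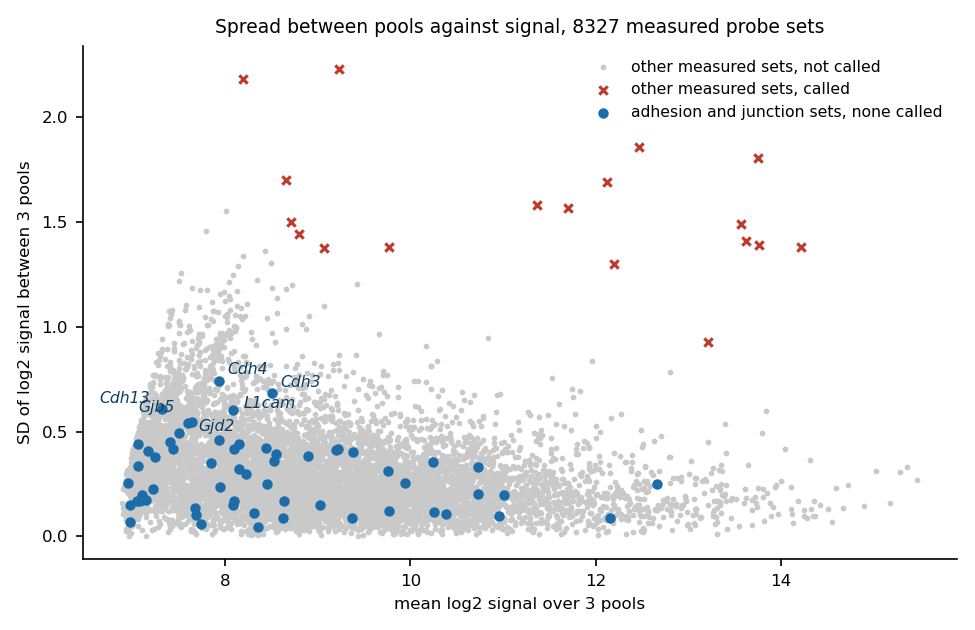
SD of log2 signal between the 3 pools against mean log2 signal for all 8327 measured probe sets. Adhesion and junction sets (blue) lie within the cloud of other sets (grey), the 6 past 2-fold are named, and the 18 called sets (crosses) include none of them.

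The 6 sets past 2-fold belonged to 3 cadherins, an immunoglobulin-type molecule and 2 connexins, and all 6 exceeded the floor in every pool. Cdh4, known as R-cadherin from the retina where it was described, gave 420.9, 151.1 and 228.5, high in pool 1 and low in pool 2, a 2.79-fold range with the largest SD of the measured members (limma, adjusted p = 0.99). Another Cdh4 set, marked g, gave 205.0, 222.2 and 193.0, a 1.15-fold range with pool 2 highest. A further set, at 50.8, 47.1 and 119.1, was under the floor throughout. The Cdh4 sets therefore did not share a pattern. Cdh3, the P-cadherin that is expressed in pigment epithelium, gave 441.5, 210.9 and 511.2, a 2.42-fold range in which pool 2 was low. It was the member set that passed the unadjusted threshold (limma, adjusted p = 0.84). Its order, pool 3 over pool 1 over pool 2, was that of the lens sums. That order was found for 10 measured member sets (16.9%), a share near the 15.7% of all measured sets. The second Cdh3 set, marked r, gave 199.6, 109.0 and 110.5 and exceeded the floor in pool 1 alone.

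Cdh13, or T-cadherin, which is anchored to the membrane by a lipid and lacks the cytoplasmic tail, gave 108.6, 149.9 and 250.5, a 2.31-fold range with pool 3 highest (limma, adjusted p = 0.99). L1cam, an axonal adhesion molecule, gave 437.2, 202.9 and 225.2, a 2.15-fold range in which pool 1 stood over the others (limma, adjusted p = 0.99). Gjd2, the connexin-36 of neuronal gap junctions in the retina, gave 137.6, 182.4 and 289.9, a 2.11-fold range with pool 3 highest (limma, adjusted p = 0.99). Gjb5, a connexin best known from skin, gave 180.5, 304.1 and 145.9, a 2.08-fold range with pool 2 highest (limma, adjusted p = 0.99). These 4 genes had a single set each, so no second set bears on them.

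The remaining cadherins varied less, and 8 of 13 cadherin genes were measured. Cdh2, the N-cadherin of neuroepithelium and of the outer limiting membrane, averaged 1712 ± 234, with 1449.9, 1786.0 and 1899.1. Cdh1, the epithelial E-cadherin, gave 319.4, 313.6 and 427.6, with pool 3 above a close pair. Cdh6 and Cdh11 are classical cadherins of the second type. Cdh6 gave 186.8, 224.9 and 205.2 (205.6 ± 19.1) and Cdh11 gave 125.2, 192.0 and 216.5, low in pool 1. Cdh5, the VE-cadherin of endothelium, gave 113.2, 173.7 and 96.3, under the floor in pool 3. The endothelial markers had 7 of 9 genes measured and sums of 2402.2, 2384.4 and 3121.8, so pool 3 was highest there and lowest for Cdh5. Cdh8, Cdh9, Cdh10, Cdh15 and Cdh16 were not measured, though 1 set of Cdh15, the M-cadherin of muscle, reached 149.0 in pool 3 with 14.2 and 16.8 in pools 1 and 2. Muscle markers summed to 927.6, 819.6 and 891.8 over 5 of 8 genes, with Myh3 and Tnnt3 under the floor everywhere.

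Catenins tie cadherins to actin, and their sets included both steady and wide members. Ctnnb1 (beta-catenin, which also carries Wnt signals) gave 4594.8, 4848.9 and 4288.2, a 1.13-fold range. Ctnna1 (alpha-E-catenin) gave 628.2, 656.0 and 707.6, also within 1.13-fold, and Ctnna2 (alpha-N-catenin, the neural form) gave 794.2, 936.8 and 892.8 (874.6 ± 73.0). Ctnna2 had 2 more measured sets, marked s and f, at 226.6, 220.4 and 296.6 and at 125.9, 132.5 and 120.4, and the highest pool was not the same in all its sets. Ctnnd1 (p120-catenin, which keeps cadherins at the membrane) gave 2368.3, 2069.5 and 1805.8, and its second set, marked s, 401.9, 253.7 and 225.5, so both ran from pool 1 down to pool 3. Ctnnd2 (delta-catenin, a neuronal relative) gave 2074.8, 1319.4 and 1776.5, low in pool 2, from a set marked r.

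Ctnnbip1, an inhibitor of beta-catenin in transcription, gave 888.9, 653.8 and 509.1, a 1.75-fold range, and was highest in pool 1. Plakoglobin, encoded by Jup and shared by adherens junctions and desmosomes, gave 460.9, 281.9 and 384.9. Ctnnal1, an alpha-catenin relative, gave 114.1, 105.0 and 140.4 and was under the floor in pool 2. The desmocollins, cadherins of desmosomes, were not measured: the 4 sets of Dsc1, Dsc2 and Dsc3 had signals of at most 136.1. The median SD of the 11 measured sets of catenins, plakoglobin and desmocollins was 0.20.

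In the integrin beta family, 9 of 13 sets were over the floor in all pools, including 3 of Itgb1bp1, which is not a chain. Among alpha chains it was 7 of 21. Itgb1, the beta chain shared by most matrix-binding integrins, gave 1906.6, 1909.5 and 2143.0 from a set marked f, a 1.12-fold range. Its second set, marked r, gave 428.0, 697.8 and 711.9, wider but in the same order of pools. Itgb1bp1, which binds the tail of that chain, had 3 measured sets. They gave 227.5, 281.7 and 356.5, then 196.6, 314.8 and 332.5, and, from a set marked g, 241.1, 288.6 and 290.4. All were highest in pool 3 and lowest in pool 1. Itgb5, a partner of alpha-v at the photoreceptor and pigment epithelium interface, gave 1223.4, 943.8 and 1542.5, in the order of the lens sums, while its second set, marked f, gave 170.8, 315.9 and 270.1. Itgb7, a leukocyte chain, gave 370.5, 252.1 and 447.7, again with pool 3 highest and pool 2 lowest. Its second set, marked f, gave 69.7, 26.2 and 65.5, under the floor in every pool. Itgb2l, a relative of Itgb2, gave 221.9, 204.9 and 213.2, within 1.08-fold. Itgb3 and Itgb4 were not measured.

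Of 12 integrin alpha genes 5 were measured. Itgav (alpha-v) gave 677.2, 938.3 and 1022.8 from a set marked f, and another set, marked i, gave 320.5, 322.7 and 339.4, which was the steadiest of the measured member sets (SD 0.045 on the log2 scale). Both had pool 3 highest. Itga3, a laminin receptor chain, gave 400.5, 351.3 and 443.2, while its second set, at 280.9, 379.1 and 254.2, was highest in the pool where the first was lowest. Itga2, a collagen receptor chain, gave 203.3, 139.1 and 122.3, highest in pool 1. Itga4, Itga5, Itga6, Itga7, Itga8, Itgae and Itgam were not measured.

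For the leukocyte integrins that use Itgb2, some alpha chain sets exceeded the floor and the Itgb2 set did not. Because sets bind with different strengths, this does not show alpha chains without their beta chain. Itgal (LFA-1 alpha) gave 119.0, 189.5 and 216.0 and Itgax (CD11c) gave 185.7, 219.3 and 299.9, both over the floor in all pools with pool 3 highest. Itgb2, the beta chain both pair with, gave 42.5, 83.2 and 34.3, under the floor in every pool, as was Itgam (CD11b of microglia and macrophages) at 58.7, 42.8 and 48.1. Itgae, an alpha chain that pairs with Itgb7, was not measured by its mean, but gave 144.7, 144.1 and 22.9 in 1 set. That set was over the floor in pools 1 and 2. Of the Itgb7 sets, 1 was over it in all pools and the other, marked f, in none. Among microglial markers 7 of 8 were measured, with sums of 2908.3, 2787.8 and 2924.6, and Aif1 was under the floor everywhere. Of the blood and leukocyte markers 5 of 7 were measured, with sums of 20833.5, 13169.4 and 11010.3 that are mostly haemoglobin. Of the leukocyte markers, Laptm5 (256.6, 430.6 and 364.1) and Cd52 (122.9, 222.6 and 162.2) were over the floor in all pools. Coro1a (212.0, 59.6 and 177.9) was over it in pools 1 and 3, and Ptprc and Lyz2 in none.

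**Figure D4:**
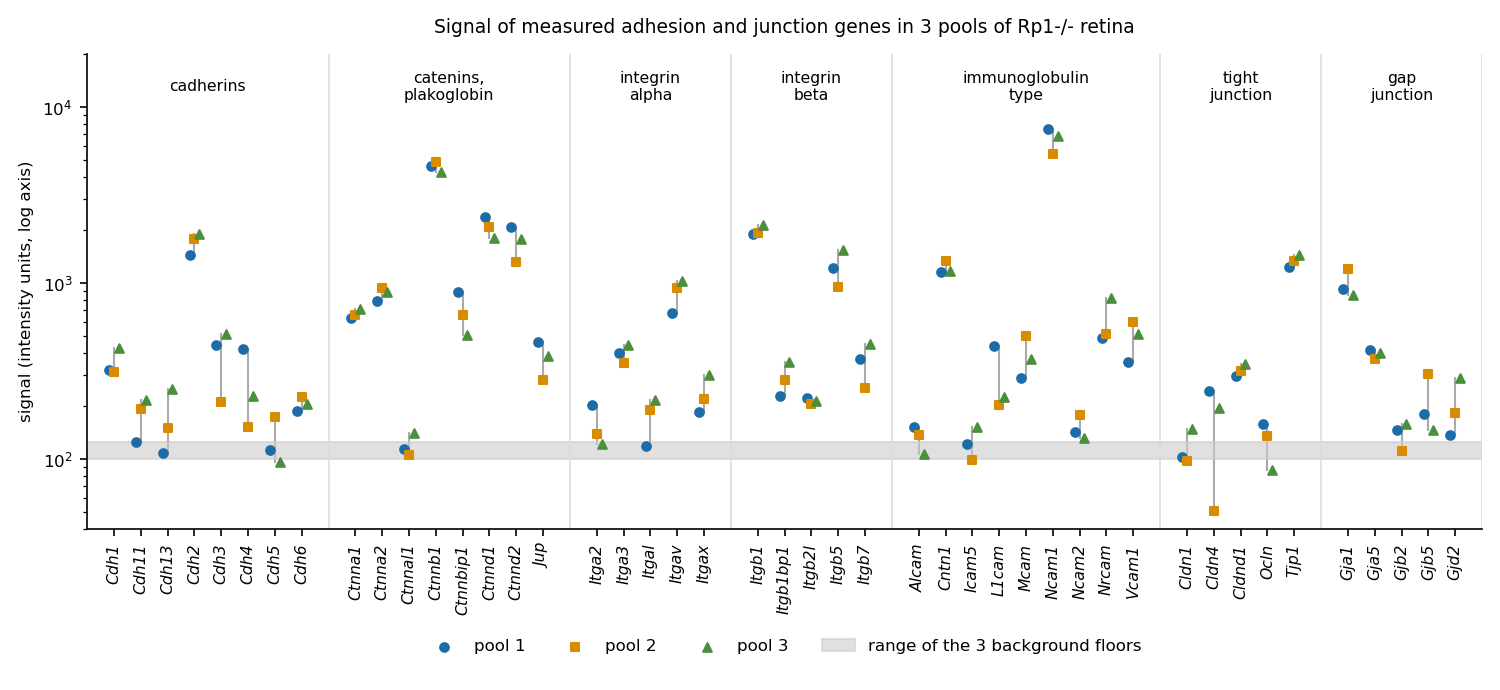
Signal of the strongest probe set of each of the 45 measured adhesion and junction genes in pools 1, 2 and 3 (log axis, grey lines join the lowest and highest pool, the grey band spans the 3 floors). Ctnnb1 and Itgb1 stayed within 1.13-fold, whereas Cdh4 spanned 2.79-fold. Heights are not comparable between genes.

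The neural adhesion molecules of the immunoglobulin type had 9 of 14 genes measured. Ncam1, the neural cell adhesion molecule, gave 7511.0, 5372.9 and 6793.3, a 1.40-fold range with pool 2 lowest, and its second measured set, marked f, gave 555.7, 552.4 and 463.7. Both were highest in pool 1, but their lowest pool differed. Ncam2, a relative found on olfactory axons among others, gave 141.7, 178.3 and 132.1. Cntn1, a lipid-anchored axonal contactin, gave 1160.9, 1339.2 and 1175.3 (1225.1 ± 99.0) and stayed within 1.15-fold. Nrcam, a relative of L1cam at axons, gave 486.9, 512.7 and 818.1, a 1.68-fold range with pool 3 above a close pair. Chl1, Cntn3 and Cntn4 were not measured.

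Cdh5, Vcam1 and Mcam, known from vessels or leukocyte traffic, were highest in pool 2. Others of that kind were not: Itgal, Itgax and Itgb7 were highest in pool 3, and Gja5 in pool 1. Pool 2 was highest for 25.4% of measured member sets, against 33.7% of all measured sets. Vcam1, a ligand of alpha-4 integrins, gave 355.8, 600.6 and 510.1, and its second measured set, marked g, 286.7, 298.5 and 240.0, both with pool 2 highest, as was a dimmer set at 92.9, 158.5 and 80.7. Mcam, an adhesion molecule of vessel walls, gave 288.7, 497.0 and 370.3, also highest in pool 2. Alcam, of axons and other cells, gave 151.7, 136.5 and 107.3 and was under the floor in pool 3, and Icam5, a telencephalic form, gave 121.9, 98.9 and 151.4. Icam1 and Icam2 were not measured, though Icam2, of endothelium, was over the floor in pool 2 at 94.3, 172.9 and 50.6.

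Among families with a measured gene, tight junction genes had the smallest share of sets over the floor in all pools (13.3%). Tjp1, the scaffold ZO-1 that also sits at adherens junctions, gave 1239.5, 1338.1 and 1441.5, a 1.16-fold range. Cldnd1, a claudin-like membrane protein, gave 295.9, 317.6 and 345.0 (319.5 ± 24.6), in the same order. Ocln (occludin) gave 158.0, 135.6 and 86.3 and Cldn1 gave 103.2, 97.1 and 147.4, so each was under the floor in 1 pool. Cldn4, an epithelial claudin, gave 244.1, 50.8 and 193.9: it was under the floor in pool 2, and against that floor pool 1 was at least 1.96-fold higher. Cldn2, Cldn3, Cldn6, Cldn7, Cldn8 and Cldn11 were not measured.

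Of 11 connexin genes 5 were measured. Gja1 (connexin-43 of astrocytes and other glia) gave 926.3, 1202.7 and 855.6, with pool 2 highest, while a second set gave 60.3, 129.2 and 184.7 with pool 3 highest. The sets are marked f and r, so neither is sure to read Gja1 alone. Gja5 (connexin-40 of vessels) gave 416.4, 369.5 and 398.9 (394.9 ± 23.7), and Gjb2 (connexin-26) gave 145.2, 110.9 and 158.6, under the floor in pool 2. Gja10, whose upstream sequence is given above, had signals of 7.6, 11.3 and 10.8. Gja3, a lens fibre connexin, exceeded the floor in pool 3 alone, at 37.5, 26.2 and 143.7, and pool 3 had the highest lens sum. Gja4, Gjb1, Gjb6 and Gjc1 were not measured either.

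Across the members, pool 3 was most often the highest pool. It was highest for 28 of 59 measured sets (47.5%), against 32.2% of all measured sets, and the order pool 3, pool 2, pool 1 was found for 18 (30.5%), against 16.5%. The 18 include several sets of Itgb1, Itgb1bp1 and Itgav, which are not separate genes. When the sets of a gene were averaged, pool 3 was highest for 48.9% of 45 genes, against 31.7% of all measured genes. With no filter on dim sets, where many lie at the floor, it was 27.7% of members against 24.1% of all sets. The sizes were small. Pool 1 minus pool 2 had a median log2 difference of -0.074 over the 59 sets, against -0.012 over all measured sets. The median of pool 1 minus pool 3 was -0.15, against -0.010, and that of pool 2 minus pool 3 was -0.11, against 0.006. With the floor at the median of the controls, pool 2 minus pool 3 was -0.009, against 0.013, and 39.4% of members were highest in pool 3, against 32.6%. The median SD between pools was larger than each. No test was made of this pattern, with 1 sample per pool.

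**Figure D5:**
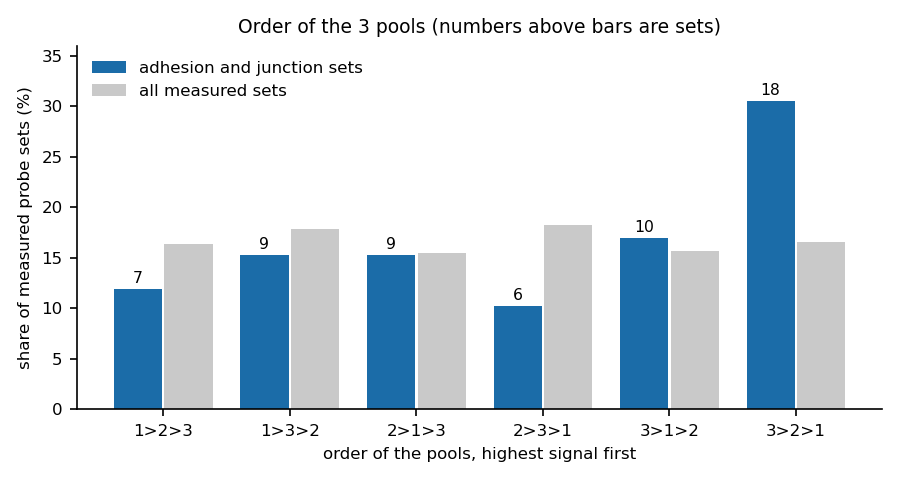
Share of measured probe sets in each of the 6 possible orders of the pools, for 59 adhesion and junction sets (blue, numbers are sets) and all 8327 measured sets (grey). The order pool 3, pool 2, pool 1 held 18 member sets (30.5%) and 16.5% of all sets.

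By family, integrin beta sets had a median log2 difference of -0.33 between pool 1 and pool 3 (pool 1 minus pool 3), with 1 of 9 sets higher in pool 1. Those 9 include 3 sets of Itgb1bp1, each lower in pool 1 than in pool 3. Over all measured sets 4080 of 8327 were higher in pool 1. Catenins, plakoglobin and desmocollins were at 0.10 with 7 of 11 higher in pool 1, and immunoglobulin-type molecules were at 0.10 with 6 of 11. Cadherin sets were at -0.17 with 3 of 10 higher in pool 1. Integrin alpha sets were at -0.15 with 2 of 7 higher in pool 1. Tight junction sets were at -0.22 with 2 of 5, and gap junction sets at -0.033 with 3 of 6. These families hold few genes, and some genes count more than once.

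Probe sets of one gene did not always agree about the pools. The same count was not made over all genes of the array. Of the 12 member genes with more than 1 measured set, 6 had the same highest pool in all their sets: Ctnnd1, Itgav, Itgb1, Itgb1bp1, Ncam1 and Vcam1. The other 6 were Cdh3, Cdh4, Ctnna2, Gja1, Itga3 and Itgb5. The whole order of pools was shared for 4 genes, Ctnnd1, Itgav, Itgb1 and Itgb1bp1. Some measured genes also had a set under the floor in every pool: Cdh4, Cldn1, Ctnna1, Itgav, Itgb7, Ncam1, Ncam2 and Tjp1.

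RNA of listed adhesion and polarity partners, which include both cytoplasmic and cell-surface proteins, was measured for 34 of 37 genes. For adhesion and junction members it was 45 of 82 genes, and for all genes 6210 of 8251. The difference was not tested, and the partners were listed by hand. Of 47 listed adhesion and polarity partners 37 had a probe set with a single symbol, 34 were measured and 33 were over the floor in all pools, taking the strongest set of each gene. None was called (limma, 0 of 34, with 1 at an unadjusted p under 0.05), and their median SD was 0.19. Rac1, a GTPase of actin remodelling, averaged 5686 ± 567, Tln1 (talin, which activates integrins) 3867 ± 429 and Bcar1 (a focal adhesion adaptor) 435.5 ± 8.2. Dlg3, a synaptic scaffold, had the largest SD of the list at 0.85, with 382.2, 126.9 and 312.4 (limma, adjusted p = 0.83). Of the Crumbs complex, which lies apical to the retinal adherens junctions, Patj was under the floor in all pools at 58.7, 55.2 and 72.2, while Pard3, of the neighbouring Par complex, averaged 198.1 ± 13.9. The partners showed no common tilt between pools: 18 of 34 were higher in pool 1 than in pool 2, 16 than in pool 3, and 15 were higher in pool 2 than in pool 3.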

How the data were processed

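For each of the 3 arrays the authors deposited an intensity per probe set (linear scale). The software and the background step behind it are not stated in the labels or the table. The arrays as deposited had equal means after trimming 2% at each end (500.26, 500.25 and 500.26), and no scaling was added. The number of arrays limits the precision.

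Of 12488 probe sets, 66 were controls. Among the other 12422, the platform annotation gave 1 symbol to 10833, several to 396 and none to 1193, and 10817 were matched to a mouse gene table (GRCm38.p6). The floor was the 90th percentile of 19 bacterial and yeast control sets. Signals under it were set to it before log2. The variance test used limma 3.58.1 in R 4.3.3 (intercept only, robust fit with intensity trend, upper-tail p, Benjamini-Hochberg over all 8327 measured sets, threshold 0.05). On simulated data with a change in 1 pool, it called 3 of 50 sets changed 2-fold and 40 of 50 changed 4-fold. Most simulated 2-fold changes were thus missed. Simulated sets of similar signal were given a common spread, which real sets need not have, so fewer changes may be found in the data. For instance, 8 of 11 lens genes were called. Not called were Bfsp1 (430.0, 171.0 and 735.8), Cryab (847.1, 404.6 and 1536.3) and Mip (445.1, 127.8 and 459.7). Their adjusted p-values were 0.36, 0.21 and 0.56 (limma). Other steps used Python 3.11.15, numpy 2.4.6 and pandas 2.3.3. Alternatives changed the scaling, floor, filter, variance fit, probe sets and arrays.

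Members and lists were chosen with earlier results of these data known. Values were given for up to 5 measured genes per family with the highest mean signal, the 15 widest and 8 steadiest member sets, all sets past 2-fold, and genes with several measured sets. Other genes were named after their values were seen. No pair of arrays had more than 9 identical values.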

Additional observations from a re-analysis of the deposited data

How the results depend on the processing

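No member set was called under any alternative: 50 named sets gave 542 values with adjusted p of at least 0.45 (limma). The Cdh3 set ranged from 0.45 to 0.99 and the Cdh4 set from 0.82 to 1.0. Over all sets the number called was 18, with 10 without a floor (pseudocount 16), 52 without a filter on dim sets, 6 with an ordinary variance fit, 0 with no intensity trend and 8 with sets averaged per gene. Quantile normalization and dropping the f, r, i, s and g classes moved no count by over 1.5 times. Leaving out 1 pool gave between 4 and 40, with 40 without pool 1, 10 without pool 2 and 4 without pool 3. With the floor at the median control, 99 member sets were measured and 28 passed 2-fold over any pair (25.5% of all sets did), with 15, 15 and 14 for pools 1 and 2, 1 and 3, and 2 and 3. Among the 25% of sets with the highest mean signal, 14 members were left. Of these, 0 passed 2-fold over any pair, against 4.83% of all sets in that setting. Highest in pool 3 were 6 of the 14 (42.9%), against 31.6% of all sets. With sets averaged per gene, 1 member passed 2-fold between pools 1 and 2 and 1 between pools 2 and 3. Without a filter all 119 members entered. Sets at the floor then moved the median log2 difference of all sets to -0.238 (pool 1 minus pool 2) and to -0.212 (pool 1 minus pool 3). The members had -0.313 and -0.260. For pool 2 minus pool 3 the median was 0.053 for members and for all sets. A set under the floor in every pool takes exactly the members' values, so these medians reflect the floors and not signal. Of the members 27.7% were highest in pool 3, against 24.1% of all sets. The count of members highest in pool 3 was added after seeing the data. Low signal limits most of the members that passed no floor. No paired analysis was possible because all arrays belong to 1 group.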

Other observations

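The protocadherin alpha genes, which share their constant exons and are known as neuronal recognition proteins, were not among the members, because their 8 probe sets are annotated to 9 or 14 genes at once. Unlike the single-symbol protocadherin sets, 7 of these 8 were measured and 6 were over the floor in all pools. The set with the strongest signal gave 1968.4, 1764.7 and 1704.5 in pools 1, 2 and 3, and another gave 1106.4, 1041.7 and 1012.6, an SD of 0.065 on the log2 scale. Both were nearly level across the pools. Widest among them was a set with 128.2, 114.4 and 218.4, under the floor in pool 2 and with pool 3 highest (limma, adjusted p = 0.99). Which member of the cluster gave the signal cannot be read from these sets.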
